A study of Mus musculus with 56 samples.

Results

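The granins and the enzymes that cut prohormones inside dense core granules were examined as a set of 10 genes: Chga, Chgb, Scg2, Scg3, Scg5, Vgf, Pcsk1, Pcsk2, Cpe and Pcsk1n. They were taken by gene symbol from a deposited table of 18088 genes, which held all 10. The set was chosen by measured values: Chgb, which encodes chromogranin B, was higher under lithium in wild-type mice, and the question was whether the other granule genes were higher too. The values that prompted this choice come from the wild-type lithium and vehicle libraries, so that comparison is described below with no test. The lithium comparison in heterozygous mice used other libraries and is tested.

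RNA sequencing had been carried out on 56 prefrontal cortices of C57BL/6J mice, either Scn2a heterozygotes (HT) or wild-type animals (WT), Scn2a being the gene of the neuronal sodium channel NaV1.2. Pups took in lithium, fluoxetine or vehicle with their mothers' milk between postnatal days 3 and 24, and the tissue was collected on day 25. Lithium is used as a mood stabiliser and fluoxetine, a serotonin reuptake inhibitor, as an antidepressant. There were 10 HT lithium libraries, 9 HT fluoxetine libraries, 10 HT vehicle libraries, 9 WT lithium libraries, 9 WT fluoxetine libraries and 9 WT vehicle libraries, each arm made up of 4 or 5 females and 4 or 5 males. The labels name no dose, allele construct, litter or dam. Pups of an arm may therefore have shared a mother, and the p-values may measure only the spread between these samples.

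Granins are acidic proteins that aggregate in the trans-Golgi network and help form dense core granules, from which neurons release peptides. Inside the granule, prohormone convertases cut precursors at pairs of basic residues and carboxypeptidase E trims the exposed residues, while small granin-like proteins chaperone or inhibit the convertases. Several granins are themselves cut into active peptides, and granin transcripts are used as markers of neurosecretory cells and of active neurons.

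The median library held 27.9 M reads, and the extremes were 24.3 and 36.4 M. Values are reads divided by the size factor of the library. Scn2a had values of 7583 to 9619 in the 29 HT libraries and 9727 to 13381 in the 27 WT libraries, without overlap. Cortical excitatory neuron markers were present in every library, among them Slc17a7 at 45151 to 59615 and Tbr1 at 3146 to 4484. Transcripts of neighbouring regions varied between libraries. Each library was given a score for 10 olfactory bulb and neuroblast markers and for 10 striatal markers, the mean over the list of log2(value + 1) after subtraction of the median over libraries. One of the 2 scores exceeded 1 in 20 of the 56 libraries. Of the olfactory list, Eomes and Tbx21 reached 0 in some libraries, and of the striatal list, Six3 and Isl1 did. These are bulk tissue values, in which fewer cells of a type and less RNA per cell cannot be told apart.

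All 10 genes passed the filter on low values. Expressed per kb of transcript so that genes can be compared, Cpe stood far above the others at 28836 ± 1501 (SD, n = 56), rank 14 of 15202 genes with a length. Cpe encodes carboxypeptidase E and lies on chromosome 8, at 64592542 to 64693054 on the minus strand of GRCm38. Chgb came next, at 4362 ± 378 per kb (chromosome 2, 132781278 to 132795079, plus strand). In order of mean level there followed Scg3 at 3564 per kb, Pcsk1n at 3290, Scg5 at 3111, Pcsk2 at 2946, Chga at 2705, Scg2 at 2534 and Vgf at 2007. Pcsk1, which encodes prohormone convertase 1, was lowest at 327 ± 49.5 per kb and rank 5652. Among neighbours in this order, the range of Cpe lay clear of that of Chgb and the range of Vgf lay clear of that of Pcsk1. All other neighbours overlapped in range. Per-kb levels of Vgf, which has 3 principal transcripts in the annotation, depend on which transcript gives the length.

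**Figure D1:**
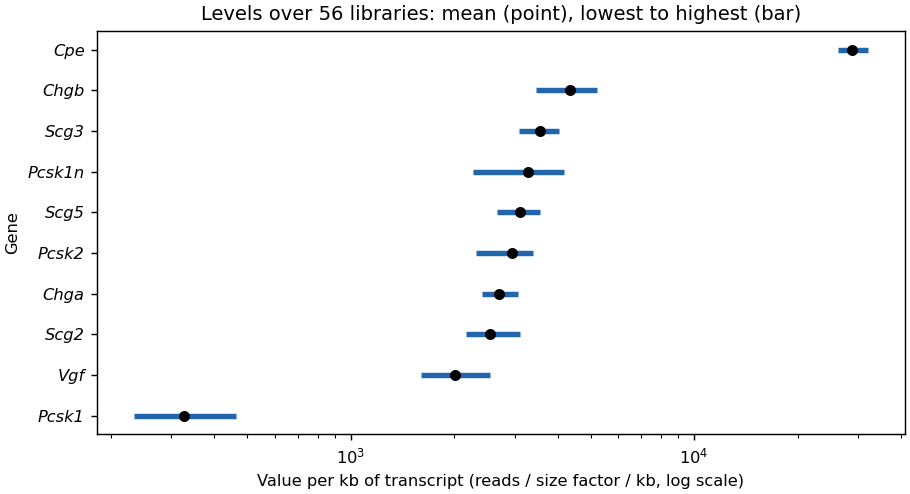
Level of each of the 10 genes per kb of transcript (horizontal log axis, reads divided by size factor and by kb), with the mean over 56 libraries as a point and the lowest to highest library as a bar. Cpe, at a mean of 28836 per kb, and Pcsk1, at 327 per kb, stand apart from the 8 genes between them.

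Promoter sequences were looked up because several granin genes are known targets of CREB, the factor that binds the cAMP response element TGACGTCA. A RefSeq table on GRCm38.p6, running from 250 bases before to 50 bases after each gene's start, matched 8 of the 10 members, all but Vgf and Cpe. The full element, which reads the same on both strands, was present in 3 of the 8, and in 588 of 32851 promoters in the table (1.79%). The shorter element TGACG, searched on both strands and contained in the full one, was present in 7 of the 8 and in 20.8% of all promoters. Pcsk1n held neither in this window. The full element began 72 bases before the start of Chgb, 68 before that of Scg2 and 78 before that of Pcsk1, and the shorter element began 44 bases before the start of Chga and 175 before that of Scg5, with further matches past the start of Scg5. The stretches of Chgb and Scg2 overlap an exon in GENCODE, whose gene starts lie upstream of those in RefSeq. The stretches of 30 bases around these sites are shown on the strand of each gene, with the matched letters in capitals, since they set the 3 genes with a full element beside 2 with the shorter one. A match describes these letters and says nothing of binding.
Chgb (chr2:132781559-132781588, plus strand): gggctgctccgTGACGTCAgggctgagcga
Scg2 (chr1:79440076-79440105, minus strand): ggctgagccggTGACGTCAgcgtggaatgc
Pcsk1 (chr13:75089768-75089797, plus strand): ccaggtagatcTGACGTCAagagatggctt
Chga (chr12:102554885-102554914, plus strand): ggggcggtcctaTGACGtaatttcctgggt
Scg5 (chr2:113829249-113829278, minus strand): aaaggaggtaaaTGACGttcataggggtcg

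Lithium in HT mice asked whether granule genes changed in libraries other than those whose Chgb values prompted the choice. The members were still chosen with earlier results of these data known, and the fit shares its spread over all 56 libraries. Chgb rose and Scg5 fell, and the other 8 genes did not pass the test. This was 2 of 10 members called, against 8.77% of the 17778 genes tested (4.64% higher and 4.13% lower). The members did not move one way: 5 had a positive and 5 a negative log2 change, with a median of 0.01, against -0.0007 over all genes. Calls were made with limma at a Benjamini-Hochberg adjusted p below 0.05, and 3 members had an unadjusted p below 0.05, against 23.3% of all genes.

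Chgb, a major core protein of dense core granules, had values of 11458 to 13468 in HT lithium libraries (median 12729), against 9464 to 12954 in HT vehicle libraries (median 11265). The ranges overlapped, but 7 of 10 vehicle libraries lay below every lithium library, and each of the 10 lithium libraries was above the vehicle mean of its sex. The means were 12670 ± 603 in HT lithium and 11333 ± 1092 in HT vehicle libraries (SD, n = 10 each). The log2 change was 0.17 ± 0.041 (SE), or 12.1% with a 95% interval of 5.94 to 18.7% (adjusted p = 0.0073, limma). It was 0.13 in females and 0.20 in males, and neither sex passed the test on its own (adjusted p = 0.23 in females and 0.095 in males, limma), where limma called 0.99% of all genes in females and 0.546% in males. The difference between the sexes was -0.06 ± 0.082 (adjusted p = 1, limma). Chgb was called under all 11 other settings tried and after leaving out each of the 56 libraries in turn, with adjusted p-values of 0.0018 to 0.041 in limma, edgeR or DESeq2.

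Vgf encodes a neurotrophin-induced granin whose cleavage yields several peptides (chromosome 5, 137026392 to 137033351, plus strand). Its values were 4887 to 6924 in HT lithium libraries (median 6061) and 4630 to 5808 in HT vehicle libraries (median 5227). Above every vehicle library lay 7 of 10 lithium libraries. The log2 change of 0.16 ± 0.053 (SE), 11.6% with a 95% interval of 3.62 to 20.2%, missed the threshold (adjusted p = 0.051, limma). It crossed the threshold in 4 of 11 other settings, DESeq2 among them (adjusted p = 0.035), and in 12 of the 56 omissions of a single library, over a range of 0.026 to 0.11. Among these 12 were WT fluoxetine and WT vehicle libraries, which are not part of this contrast. Leaving those out kept the log2 change at 0.16 and lowered only its SE.

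Of the other granins, Scg2, the precursor of secretoneurin (chromosome 1, 79434669 to 79440120, minus strand), had values of 6141 to 7821 in HT lithium libraries (median 6473) and 5814 to 7198 in HT vehicle libraries (median 6248). Its log2 change was 0.09 ± 0.048 (adjusted p = 0.27, limma). Chga encodes chromogranin A, a core protein related to chromogranin B (chromosome 12, 102554969 to 102565028, plus strand). It had values of 4798 to 5762 in HT lithium libraries (median 5126) and 4644 to 5633 in HT vehicle libraries (median 5065), a log2 change of 0.02 ± 0.036 (adjusted p = 0.75, limma). Scg3 encodes secretogranin III, which holds chromogranin A at the granule membrane (chromosome 9, 75643189 to 75684056, minus strand). Its median was 8283 in HT lithium and 8287 in HT vehicle libraries, and its log2 change was -0.0029 ± 0.039 (adjusted p = 0.98, limma). The 95% intervals were -0.639 to 13.6% for Scg2, -3.36 to 6.92% for Chga and -5.46 to 5.34% for Scg3.

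Scg5 encodes 7B2, the chaperone that prohormone convertase 2 needs to mature (chromosome 2, 113776362 to 113829121, minus strand). It had values of 3272 to 4107 in HT lithium libraries (median 3516), against 3433 to 4303 in HT vehicle libraries (median 3978). Below the vehicle mean of its sex lay 9 of the 10 lithium libraries, while the ranges overlapped widely. The means were 3587 ± 234 in HT lithium and 3941 ± 247 in HT vehicle libraries (SD, n = 10 each). The log2 change was -0.14 ± 0.039 (SE), that is -8.99% with a 95% interval of -13.8 to -3.87% (adjusted p = 0.022, limma). It was -0.11 in females and -0.17 in males (adjusted p = 0.34 and 0.15, limma), so neither sex passed the test on its own. In males alone the 5 lithium libraries lay below all 5 vehicle libraries. The share of all genes separated in this way was not counted, so nothing is read from the separation. The call was lost without HT lithium female 5 (adjusted p = 0.061, limma) and without HT vehicle female 4 (adjusted p = 0.056, limma).

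The convertases and the other processing genes did not pass the test. Pcsk2 encodes prohormone convertase 2, the partner of 7B2 (chromosome 2, 143546156 to 143816285, plus strand) and had values of 11438 to 15179 in HT lithium libraries (median 13605) and 11997 to 14924 in HT vehicle libraries (median 14041). Its log2 change was -0.03 ± 0.056 (adjusted p = 0.82, limma), with an interval of -9.20 to 6.07%. Pcsk1 (chromosome 13, 75089826 to 75134861, plus strand) had values of 1178 to 1920 in HT lithium libraries (median 1534) and 1224 to 1981 in HT vehicle libraries (median 1521). Its log2 change was 0.07 ± 0.093 (adjusted p = 0.69, limma), with the widest interval of the 10 genes, -7.63 to 19.8%. Cpe had values of 55359 to 67230 in HT lithium libraries (median 60635) and 58317 to 67875 in HT vehicle libraries (median 62431), a log2 change of -0.04 ± 0.034 (adjusted p = 0.49, limma). Pcsk1n encodes proSAAS, an inhibitor of prohormone convertase 1 (chromosome X, 7919822 to 7924410, plus strand). It had values of 5345 to 9149 in HT lithium libraries (median 6926) and 6373 to 8615 in HT vehicle libraries (median 7873), and its log2 change was -0.14 ± 0.084 (adjusted p = 0.33, limma). The log2 change was -0.27 in females and -0.0036 in males, and the difference between the sexes, -0.27 ± 0.168, did not pass the test (adjusted p = 1, limma).

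**Figure D2:**
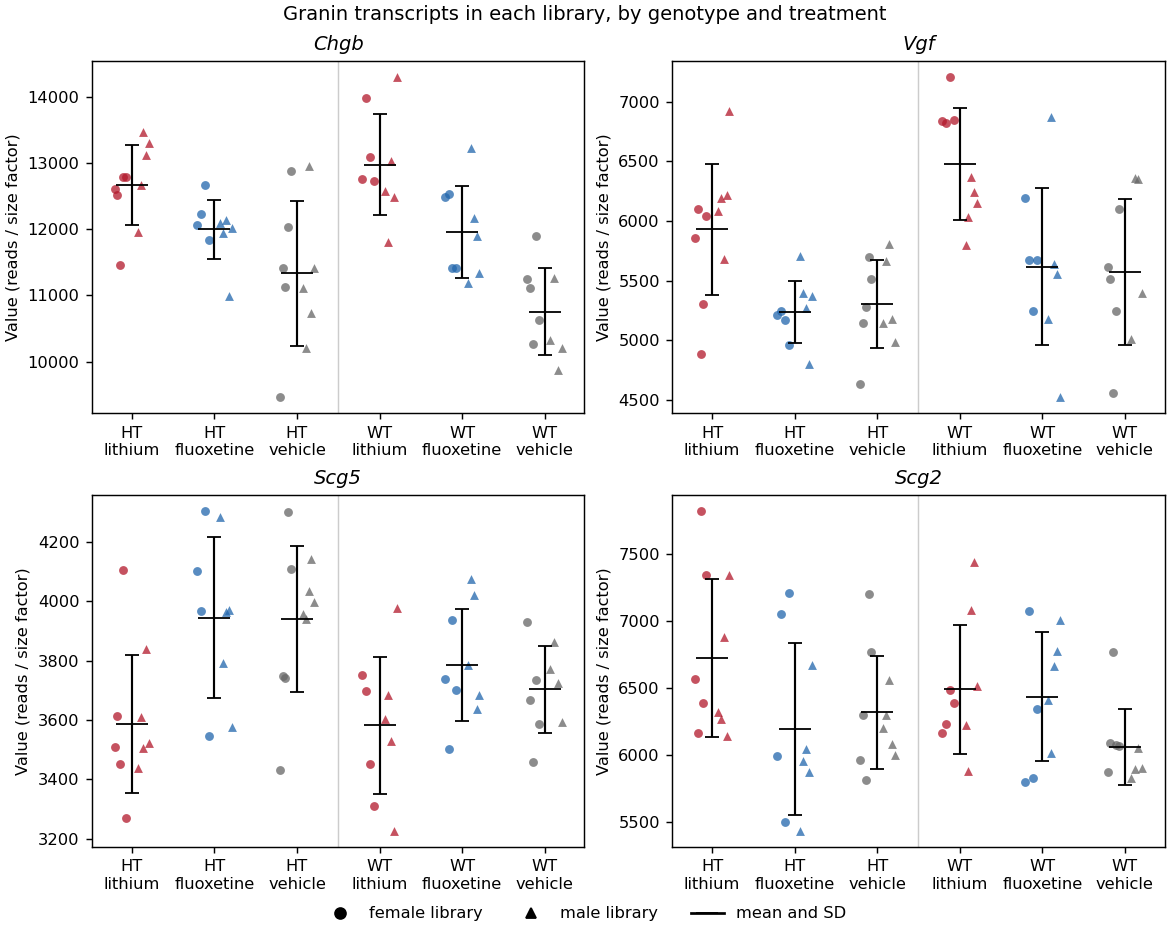
Values (vertical axis, reads divided by size factor, not starting at 0) of Chgb, Vgf, Scg5 and Scg2 in every library, with circles for females, triangles for males and a bar for the mean and SD of each arm of genotype and treatment. Chgb averaged 12670 in HT lithium and 11333 in HT vehicle libraries, and Scg5 averaged 3587 in HT lithium and 3941 in HT vehicle libraries.

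Tissue makeup was compared between the same HT groups. The olfactory score ran from -0.80 to 2.39 in HT lithium libraries (median 0.13) and from -0.82 to 1.63 in HT vehicle libraries (median 0.37). The striatal score ran from -0.42 to 2.18 in HT lithium libraries (median 0.08) and from -0.53 to 2.97 in HT vehicle libraries (median -0.30). A score above 1 occurred in 4 of 10 libraries of each group. None of the 10 olfactory or 10 striatal markers was called in HT mice under lithium. With both scores as covariates the log2 change was 0.17 for Chgb (adjusted p = 0.0019, limma), -0.13 for Scg5 (adjusted p = 0.0066, limma) and 0.16 for Vgf (adjusted p = 0.035, limma). Without the 20 libraries above 1, it was 0.18 for Chgb (adjusted p = 0.016, limma), 0.18 for Vgf (adjusted p = 0.11, limma) and -0.11 for Scg5 (adjusted p = 0.15, limma), so that the Scg5 call was lost. None of 8 pan-neuronal markers was called, 6 were positive, and their summed values were 201747 to 224077 in HT lithium and 200102 to 226559 in HT vehicle libraries. Among 8 cortical excitatory markers Rorb fell (log2 change -0.23, adjusted p = 0.0051, limma), and the summed values were 61203 to 75831 in HT lithium and 63207 to 77728 in HT vehicle libraries. None of 7 inhibitory neuron or 9 oligodendrocyte markers was called. The sexes differed in direction: of the 9 oligodendrocyte markers 8 were negative in HT females (median log2 change -0.18) and 8 positive in HT males (0.07), and of the 10 striatal markers 9 were negative in HT females (-0.35) and 8 positive in HT males (0.26). None of these differences between the sexes was called. Their part in the female and male values given above, those of Pcsk1n among them, was not tested.

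Single glial markers and several endothelial ones were called under lithium in HT mice, where 8.77% of all genes were called. S100b, an astrocyte calcium-binding protein, fell by 0.14 on the log2 scale, and P2ry12, a purine receptor of microglia, fell by 0.21 (adjusted p = 0.023 and 0.036, limma). They were the single calls among 8 astrocyte and 7 microglia markers, a share near that of all genes. Of 6 endothelial markers Cldn5 fell by 0.49 and Pecam1 by 0.20 on the log2 scale, while Flt1 rose by 0.19 (adjusted p = 0.0025, 0.046 and 0.011, limma). The summed astrocyte values were 53622 to 59507 in HT lithium and 51299 to 67953 in HT vehicle libraries, the microglia sums were 8456 to 9902 in HT lithium and 8654 to 11167 in HT vehicle libraries, and the endothelial sums were 5616 to 6812 in HT lithium and 5395 to 7824 in HT vehicle libraries. The part of these markers in the granin results was not tested.

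In WT mice, the comparison from which the set was drawn, Chgb had values of 11804 to 14300 in WT lithium libraries (median 12759) and 9868 to 11893 in WT vehicle libraries (median 10633). The 2 groups overlapped by a single library on each side, since 8 of 9 lithium libraries lay above every vehicle library and 8 of 9 vehicle libraries lay below every lithium library. The means were 12975 ± 763 in WT lithium and 10756 ± 657 in WT vehicle libraries (SD, n = 9 each), a log2 change of 0.28 ± 0.043 (SE) or 21.2%. Chgb was higher in females and in males, by 0.25 and 0.30 on the log2 scale.

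Vgf had values of 5799 to 7207 in WT lithium libraries (median 6370) and 4552 to 6361 in WT vehicle libraries (median 5516). Above every vehicle library lay 5 of 9 lithium libraries. The log2 change was 0.23 ± 0.056, at 0.36 in females and 0.09 in males. Markers of other cells and regions also differed between the sexes here. All 9 oligodendrocyte markers were negative in WT females (median log2 change -0.22) and positive in WT males (0.25), and the striatal median was -0.22 in WT females and 0.95 in WT males. The olfactory median was -1.02 in WT females and -0.25 in WT males, and the excitatory neuron median was 0.16 in WT females and 0.0030 in WT males. Pcsk1 had values of 1540 to 2036 in WT lithium libraries (median 1871) and 1324 to 1957 in WT vehicle libraries (median 1476), a log2 change of 0.24 ± 0.099. Chga differed by 0.11 ± 0.038, Scg2 by 0.10 ± 0.051, Pcsk2 by 0.08 ± 0.059, Scg3 by 0.07 ± 0.041 and Cpe by 0.02 ± 0.036 on the log2 scale. Scg5 and Pcsk1n were lower in WT lithium libraries, by log2 changes of -0.05 ± 0.042 and -0.18 ± 0.089. Pcsk1n had a median of 6996 in WT lithium and 7849 in WT vehicle libraries, and 6 of 9 vehicle libraries lay above every lithium library.

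Applied to this contrast for reference only, the call rule marked 2 of the 10 members, Chgb and Vgf, both higher, where it marked 5.71% of all genes (3.84% higher and 1.88% lower). Of all genes marked, 682 of 1016 were higher, and 494 of 884 after TMM rescaling. The median log2 change of the 10 was 0.09, against 0.0019 over all genes, and 8 were positive. These counts describe the contrast that chose the set, and nothing is read from them. Without the 20 libraries with a score above 1, Chgb stayed marked at 0.25 and Vgf was not, at 0.16 on the log2 scale. In the WT comparison all 10 striatal markers were positive (median log2 change 0.32) and all 10 olfactory markers negative (median -0.61), with no call among them. All 8 pan-neuronal markers were positive too (median 0.07), Snap25 was called at 0.13, Tbr1 of the excitatory list was called at 0.18 and Cldn5 of the endothelial list at -0.38, and the pan-neuronal sum was 215038 to 234749 in WT lithium and 195084 to 222798 in WT vehicle libraries. Their part in the WT values was not tested.

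The lithium change in HT minus that in WT was -0.11 ± 0.060 (SE) on the log2 scale for Chgb, -0.07 ± 0.078 for Vgf, -0.17 ± 0.136 for Pcsk1, -0.11 ± 0.081 for Pcsk2 and -0.08 ± 0.057 for Scg5. Of the 10 differences 9 were negative, Pcsk1n being the exception at 0.04 ± 0.123. limma called 0 of the 10 and 0% of all genes, with 0 members at an unadjusted p below 0.05 against 10.9% of all genes, and edgeR and DESeq2 called 0 members. Because the WT contrast enters this difference, it is given as a description.

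**Figure D3:**
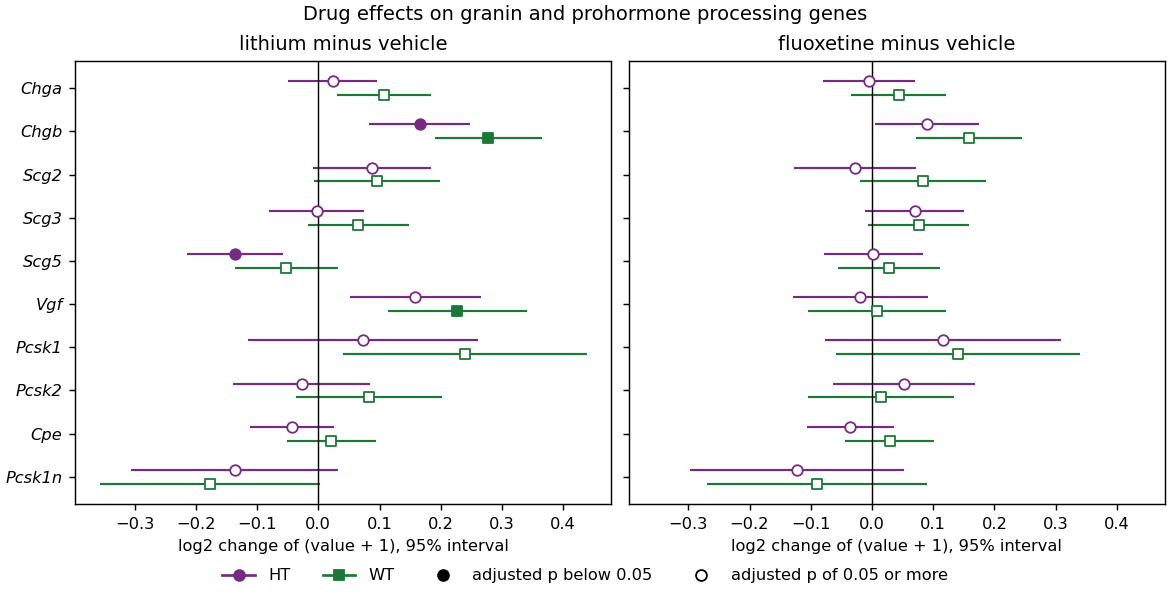
log2 change of (value + 1) for the 10 genes under lithium (left) and fluoxetine (right) against vehicle, in HT (purple circles) and WT mice (green squares), with 95% intervals, and filled symbols at an adjusted p below 0.05. In HT mice lithium gave 0.17 for Chgb and -0.14 for Scg5, both filled, and no fluoxetine symbol is filled. The WT lithium symbols, filled for Chgb and Vgf, show the contrast that chose the set. Their fill and intervals are a description, not a test.

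Fluoxetine was compared with the same vehicle libraries as lithium, so the 2 drug effects within a genotype share their controls. In HT mice limma called 0 of the 10 genes, against 0.045% of all genes, and edgeR and DESeq2 called 0 as well. A single member, Chgb, had an unadjusted p below 0.05, against 8.56% of all genes. It had values of 10990 to 12667 in HT fluoxetine libraries (median 12066), within the range of 9464 to 12954 in HT vehicle libraries (median 11265). Its log2 change was 0.09 ± 0.042, or 6.44% with a 95% interval of 0.365 to 12.9% (adjusted p = 0.57, limma). Vgf had a median of 5245 in HT fluoxetine and 5227 in HT vehicle libraries, with a log2 change of -0.02 ± 0.055 (interval -8.56 to 6.51%). Scg5 had a median of 3968 in HT fluoxetine and 3978 in HT vehicle libraries, with a log2 change of 0.0024 ± 0.041 (interval -5.32 to 5.98%).

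In WT mice limma again called 0 of the 10 genes under fluoxetine, against 0.146% of all genes, with 1 member, Chgb, at an unadjusted p below 0.05 (10.9% of all genes). edgeR called 0 members, against 0.169% of the genes it tested. DESeq2 called 1, also Chgb, against 0.812% of the genes it tested. Chgb had values of 11181 to 13232 in WT fluoxetine libraries (median 11903) and 9868 to 11893 in WT vehicle libraries (median 10633). Each of the 9 fluoxetine libraries was above the vehicle mean of its sex, and 5 were above every vehicle library. The means were 11963 ± 693 in WT fluoxetine and 10756 ± 657 in WT vehicle libraries (SD, n = 9 each). The log2 change was 0.16 ± 0.043, or 11.6%. The WT vehicle libraries used here, and the WT libraries in the genotype comparisons below, are also those whose Chgb values entered the choice of the set, so the values of Chgb in these comparisons are a description. The unadjusted p and the DESeq2 call of Chgb given above are likewise a description, not a test. Vgf had a median of 5641 in WT fluoxetine and 5516 in WT vehicle libraries, with a log2 change of 0.0082 ± 0.056 (adjusted p = 0.97, limma). The remaining WT log2 changes under fluoxetine ran from -0.09 for Pcsk1n to 0.14 for Pcsk1. The fluoxetine change in HT minus that in WT was -0.07 for Chgb and ran from -0.11 for Scg2 to 0.04 for Pcsk2, with 0 members called by limma, edgeR or DESeq2 and 0 at an unadjusted p below 0.05, against 5.44% of all genes.

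Heterozygosity for Scn2a did not bring any of the 10 genes past the threshold under any treatment in limma, edgeR or DESeq2. Under vehicle, limma called 0.00562% of all genes, and Scg5 was the single member with an unadjusted p below 0.05 (9.93% of all genes). It had values of 3433 to 4303 in HT vehicle libraries (median 3978) and 3457 to 3931 in WT vehicle libraries (median 3727), and 7 of 10 HT libraries lay above every WT library. The log2 change was 0.09 ± 0.041 (adjusted p = 0.46, limma), or 6.19% with a 95% interval of 0.369 to 12.3%. Chgb differed by 0.08 ± 0.042, with a median of 11265 in HT vehicle and 10633 in WT vehicle libraries. The spread of Chgb was wider in HT vehicle libraries, with a coefficient of variation of 9.63%, than in HT lithium libraries (4.76%), HT fluoxetine libraries (3.71%) or WT vehicle libraries (6.11%), a difference that was not tested.

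Under lithium the genotypes differed most in Vgf, Pcsk1 and Pcsk2. Vgf had a median of 6061 in HT lithium and 6370 in WT lithium libraries, a log2 change of -0.14 ± 0.055 (adjusted p = 0.38, limma), with an interval of -15.9 to -2.08%. Pcsk1 had a median of 1534 in HT lithium and 1871 in WT lithium libraries (-0.19 ± 0.096, adjusted p = 0.49, limma), and 5 of 10 HT libraries lay below every WT library. Pcsk2 had a median of 13605 in HT lithium and 14564 in WT lithium libraries (-0.11 ± 0.058, adjusted p = 0.52, limma). limma called 0.0337% of all genes in this comparison, and Vgf was the single member with an unadjusted p below 0.05 (10.3% of all genes). Under fluoxetine limma called 0.0112% of all genes, 0 members had an unadjusted p below 0.05 against 3.94% of all genes, and the largest of the 10 log2 changes was that of Vgf, at -0.10 ± 0.057 (adjusted p = 1, limma).

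No member passed the test between the sexes. Females minus males differed by -0.06 (Pcsk1n) to 0.03 (Chga) on the log2 scale, limma called 0 of the 10 against 0.197% of all genes, and 0 had an unadjusted p below 0.05 (6.25% of all genes). edgeR and DESeq2 called 0 too. For Chgb the interval of the female to male difference was -2.03 to 4.91%. The lithium effect in HT did not differ between the sexes past the threshold for any member, with 0 members and 0% of all genes called by limma and 0 members at an unadjusted p below 0.05 against 2.71% of all genes. edgeR and DESeq2 also called 0 members.

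Genes that build, move and fill the same granules were read beside the members, from lists drawn up with earlier results of these data known. Under lithium in HT limma called 8.77% of all genes and, over the 4 lists, 4 of 56 genes, a share near that one. Of 8 other peptide processing enzymes 1 rose under lithium in HT mice, Cpd, the Golgi carboxypeptidase D, with means of 3323 in HT lithium and 3115 in HT vehicle libraries (0.09 ± 0.031, adjusted p = 0.0497, limma), and the list's median log2 change was 0.06. Of 17 genes for granule biogenesis 0 were called in HT by limma, with 8 positive and a median of -0.0071. Of 16 genes for granule transport and release 1 fell, Rab27b, a small GTPase that brings granules to the membrane (-0.19 ± 0.058, adjusted p = 0.031, limma), with means of 1101 in HT lithium and 1256 in HT vehicle libraries. The list's median was -0.04.

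Of 15 genes for peptide and neurotrophin cargo in HT mice, 14 had a negative log2 change under lithium, with a median of -0.12, and 2 fell. Cort, the precursor of cortistatin, an interneuron peptide, had means of 122 in HT lithium and 169 in HT vehicle libraries (-0.49 ± 0.109, adjusted p = 0.0029, limma). Crh, corticotropin-releasing hormone, had means of 113 in HT lithium and 139 in HT vehicle libraries (-0.30 ± 0.098, adjusted p = 0.042, limma). Inhibitory neuron markers, from cells that make many of these peptides, had 3 of 7 positive and a median of -0.03. The part of these cells in the cargo values was not tested.

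In WT mice under lithium, described without a test as before, 2 of the 17 biogenesis genes passed the call rule, as did 5.71% of all genes. Atp6ap1 and Atp6ap2, accessory subunits of the vacuolar proton pump that acidifies granules, had log2 changes of 0.22 ± 0.038 and 0.17 ± 0.038. Bdnf, the neurotrophin stored in dense core granules, was the single gene of 15 cargo genes to pass, near the same share, with means of 995 in WT lithium and 794 in WT vehicle libraries and a log2 change of 0.34 ± 0.10. The median log2 change was 0.05 for other processing enzymes, 0.05 for biogenesis, 0.05 for transport and release, and 0.03 for cargo. Under fluoxetine limma called 0 genes of the 4 lists in either genotype, and the list medians ran from -0.09 for cargo in HT to 0.04 for biogenesis in WT.

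Within groups the members did not vary as a single block. Correlations between all 45 pairs were computed over the 56 libraries after subtraction of each group's mean, with 100000 permutations within groups, so that the smallest p they can give is 1e-05. Pearson's r was positive for 32 pairs and negative for 13, with a median of 0.20, and it ran from -0.59 to 0.74. Among pairs of the 5860 genes with a mean value of at least 1000, the median r was 0.05, and 56.1% of pairs were positive, with 5th and 95th percentiles of -0.47 and 0.57. After Benjamini-Hochberg adjustment over the 45 pairs, 17 passed 0.05, 12 of them positive and 5 negative. The share of all gene pairs that would pass was not computed. Most of the 17 have an r between the 5th and 95th percentiles just given. Outside them lie Scg5 with Pcsk2 (0.741), Cpe with Pcsk1n (0.637) and Chga with Chgb (0.609). Scg2 with Scg3 (-0.593), with Cpe (-0.573) and with Pcsk2 (-0.531) also lie outside. Whether the 17 differ from other gene pairs was not tested.

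The tightest pair was Scg5 and Pcsk2, the chaperone and its convertase, with r = 0.741 and rho = 0.774 (permutation p = 1e-05 and adjusted p = 0.00011 for r, adjusted p = 0.00022 for rho). Without the 2 libraries farthest from the median of Scg5, r was 0.712. Cpe and Pcsk1n followed, with r = 0.637 and rho = 0.606 (permutation p = 1e-05 and adjusted p = 0.00011 for r), and r = 0.628 without the 2 farthest libraries. Chga and Chgb had r = 0.609 and rho = 0.575 (permutation p = 4e-05, adjusted p = 0.00036), and 0.589 without the 2 farthest. Chgb and Pcsk2 had r = 0.569 and rho = 0.628 (permutation p = 1e-05, adjusted p = 0.00011), and 0.573 without the 2 farthest. Vgf correlated with Pcsk1 at r = 0.513 and rho = 0.527 (permutation p = 0.0016, adjusted p = 0.0060), and at 0.465 without the 2 farthest.

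Scg2 was negatively correlated with 4 of the other genes past the threshold. It had r = -0.593 and rho = -0.571 with Scg3 (permutation p = 1e-05, adjusted p = 0.00011), and r = -0.527 without the 2 farthest libraries. With Cpe it had r = -0.573 and rho = -0.525 (permutation p = 0.00014, adjusted p = 0.0010), with Pcsk2 r = -0.531 and rho = -0.474 (permutation p = 0.00093, adjusted p = 0.0046), and with Scg5 r = -0.463 and rho = -0.478 (permutation p = 0.0055, adjusted p = 0.016). Without the 2 farthest libraries these were -0.531, -0.468 and -0.439. The full promoter element was found in Chgb, Scg2 and Pcsk1. Chgb and Scg2 had r = 0.071 and rho = 0.063 (permutation p = 0.64, adjusted p = 0.75), and r = -0.022 without the 2 farthest. Chgb and Pcsk1 had r = 0.337 and rho = 0.316 (permutation p = 0.045, adjusted p = 0.087). Scg2 and Pcsk1 had r = 0.312 and rho = 0.278 (permutation p = 0.031, adjusted p = 0.067). The part of the element in these values was not tested. The r of Scg2 was near 0 with Chga (-0.065) and Vgf (-0.085).

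The correlations were taken again among the 36 libraries with both tissue scores at or below 1, after their own group means were removed. Of the 17 pairs 16 kept their sign there, and 15 kept it both there and among 16 libraries above 1 from groups with at least 2 such libraries. Both subsets belong to the libraries in which the 17 pairs were picked, so a kept sign is no independent support. Most groups among the 16 hold only 2 libraries, whose deviations mirror each other. The r values of the 16 therefore rest on few independent values. The pair that lost its sign was Chga and Pcsk2, with r = 0.464 in all libraries, -0.104 in the 36 and 0.833 in the 16. Vgf and Pcsk2 had r = 0.415 in all libraries, 0.0091 in the 36 and 0.748 in the 16, and Chga and Vgf had 0.543, 0.245 and 0.802. In the 36 libraries r was 0.614 for Scg5 and Pcsk2, 0.485 for Cpe and Pcsk1n, 0.439 for Chga and Chgb, 0.634 for Chgb and Pcsk2, and 0.576 for Vgf and Pcsk1. For Scg2 it was -0.326 with Scg3, -0.296 with Cpe, -0.362 with Pcsk2 and -0.488 with Scg5. In the 16 libraries r was 0.726 for Scg5 and Pcsk2, 0.912 for Cpe and Pcsk1n, 0.722 for Chga and Chgb, 0.870 for Chgb and Pcsk2, and 0.400 for Vgf and Pcsk1. There Scg2 had -0.442 with Scg3, -0.840 with Cpe, -0.164 with Pcsk2 and 0.066 with Scg5, so the relation of Scg2 with Scg5 did not hold among those libraries. In the 36 libraries alone, 2 of the 45 pairs passed an adjusted p of 0.05.

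**Figure D4:**
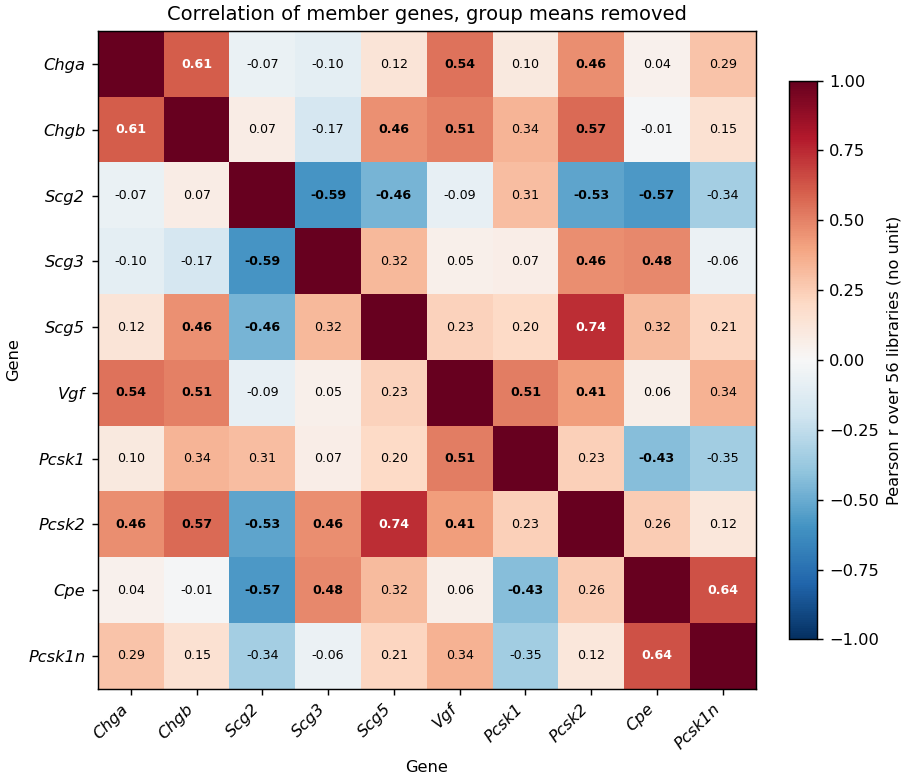
Pearson's r for each pair of the 10 genes (both axes) over 56 libraries after subtraction of group means, on a colour scale from -1 (blue) to 1 (red), with bold type for an adjusted permutation p below 0.05. Scg5 and Pcsk2 have the highest r, 0.741, and Scg2 has the lowest, -0.593 with Scg3.

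The members were also set against the tissue scores, 20 relations in all, with group means removed. Of these 6 passed an adjusted p of 0.05, all with the olfactory score. The share of all genes that would pass was not computed, so the 6 are not read as a trait of the members. Pcsk2 was lower where the olfactory score was higher, with r = -0.734 and rho = -0.690 (permutation p = 2e-05, adjusted p = 0.00020), and r = -0.680 without the 2 libraries farthest from the median score. Scg5 had r = -0.557 and rho = -0.556 (permutation p = 0.00016, adjusted p = 0.0011), and -0.540 without the 2 farthest. Scg2 was higher where the score was higher, at r = 0.688 and rho = 0.636 (permutation p = 1e-05, adjusted p = 0.00020), and 0.650 without the 2 farthest. Chgb had r = -0.381 and rho = -0.357 (permutation p = 0.0055, adjusted p = 0.027), and -0.318 without the 2 farthest. Scg3 and Cpe passed at r = -0.411 and -0.403, with rho = -0.378 and -0.344 (permutation p = 0.0096 and 0.012, adjusted p = 0.038 and 0.040), and -0.331 and -0.343 without the 2 farthest. By rho, Chgb, Scg3 and Cpe did not pass (adjusted p = 0.060, 0.072 and 0.083, permutation). For the 36 libraries with low scores r was taken again, here with the group means over all 56 libraries removed, unlike the pair correlations above. It was -0.617 for Pcsk2, -0.516 for Scg5, 0.564 for Scg2, -0.380 for Chgb, -0.222 for Scg3 and -0.106 for Cpe. With the striatal score r lay between -0.340 for Scg3 and 0.208 for Chgb, and Vgf had r = -0.253 with the olfactory and 0.071 with the striatal score (permutation p = 0.091 and 0.62, adjusted p = 0.17 and 0.69).

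**Figure D5:**
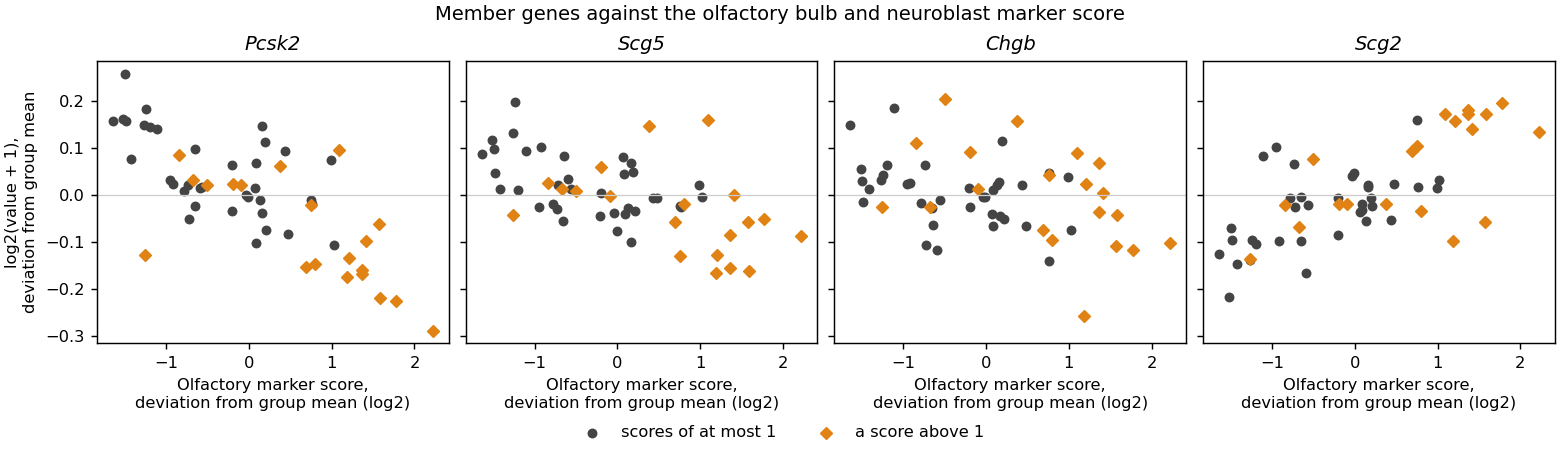
Deviation from the group mean of log2(value + 1) for Pcsk2, Scg5, Chgb and Scg2 (vertical axis) against the deviation of the olfactory bulb and neuroblast score (horizontal axis, log2) in 56 libraries, with orange diamonds for the 20 libraries that had a tissue score above 1. Pcsk2 slopes down (r = -0.734) and Scg2 slopes up (r = 0.688).

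Among 12673 other genes with a mean value of at least 50, the patterns most like that of Chgb over the 56 libraries, group means removed, belonged to Mfsd6 (r = 0.837), Hsp90ab1, a cytosolic chaperone (0.836), Adora1, the adenosine A1 receptor (0.827), App, the amyloid precursor protein (0.816), and Ina, the neurofilament protein internexin (0.813). The patterns most like that of Vgf belonged to Fmnl1 (r = 0.812), Bdnf (0.783), Gpc1 (0.766), Ergic1 (0.765) and Cacnb1 (0.760). All these values were read in the same libraries, which differ in tissue makeup and depth, and are given as a description.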

How the data were processed

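Per the labels' protocols, library preparation used TruSeq Stranded mRNA reagents. The tools named per the submitters' processing notes, whose roles are not given, are DESeq2 1.19.11, Salmon 0.11.2 and R 3.6.0, with GRCm38 as the build. Each deposited value is a signal that the authors made by dividing a gene's reads by 1 size factor per library (0.818 to 1.23). Dividing the values of each library by a step common to its genes gave whole reads for 100% of values (within 0.01 reads), a weak test in 3 libraries whose step was close to 1. GENCODE vM21 supplied symbols for 18077 gene IDs, and the coordinates.

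Genes with a value of at least 10 in at least 4 libraries were tested (17778 genes, 310 left out). In R 4.3.3, limma 3.58.1 with a variance trend and robust settings was fitted to log2(value + 1) in all 56 libraries, with a mean per group of genotype, treatment and sex (12 groups), and contrasts were averaged over the sexes. The script was tested on simulated data. The plan had named edgeR for raw counts and limma for values divided by size factors, and the deposited values were of the second kind. Alternatives were TMM rescaling, voom, edgeR 4.0.16 and DESeq2 1.42.0 on recovered reads, no filter, pseudocounts of 0.5 and 5, only the groups compared, a replicate block, tissue scores as covariates, and omissions of libraries. Per-kb levels used principal transcripts. The members, the lists and the promoter element were chosen with earlier results of these data known. Named were the 10 members, Scn2a, called genes of the pathway lists, and the 5 genes most like Chgb and Vgf; called cell type markers and the promoter stretches shown were picked after their values were seen.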

Additional observations from a re-analysis of the deposited data

Results flagged for a closer look

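Within single groups of 4 or 5 libraries, 7 of 120 combinations of member and group held a library set apart from the rest by more than Dixon's 95% critical value, where chance gives about 1 in 20. Chgb was low in HT lithium female 3, at 11458 against 12524 to 12796 in the other HT lithium females, and in HT fluoxetine male 4, at 10990 against 11947 to 12140 in the other males of its group. Vgf was high in WT lithium female 3, at 7207 against 6821 to 6847. Scg2 was high in WT vehicle female 3, at 6769 against 5868 to 6085. Pcsk2 was low in WT lithium male 4, at 12416 against 14079 to 14564. Cpe was high in HT fluoxetine female 3, at 66408 against 58185 to 58954, and low in HT fluoxetine male 5, at 57020 against 61487 to 63249.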

How the results depend on the processing

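Without the 20 libraries with a tissue score above 1, members called fell to 1 for lithium in HT (Scg5 lost) and to 1 for lithium in WT (Vgf lost), all genes called fell to 505 and 110, and correlated pairs fell to 2; this setting also leaves fewer libraries. Under fluoxetine in WT 1 member, Chgb, was called with DESeq2 and 1, also Chgb, with tissue covariates, and the cause was not tested. These calls of Chgb used WT vehicle libraries that entered the choice of the set and are a description. Leaving out 1 library at a time gave 1 to 3 members for lithium in HT, 2 to 2 for lithium in WT and 0 to 0 elsewhere, the low of 1 without HT lithium female 5. Over those omissions the genes called ranged from 985 to 1816 of all genes for lithium in HT, 570 to 1226 for lithium in WT, 4 to 13 for fluoxetine in HT, 0 to 71 for fluoxetine in WT, 1 to 35 for genotype under vehicle and 2 to 10 for genotype under lithium. Over 67 settings and 110 member results, no called value changed sign, 4 calls were lost and 20 gained, and 196 uncalled values changed sign. The replicate block changed no member call (2 and 2 for lithium, 0 otherwise). Same-numbered libraries of drug and vehicle groups had correlations of deviations from -0.173 to 0.132, 1 of 35 over 0.1, and share no source named in the labels, so that the numbers were not taken as pairs. Other counts over all genes moved by more than 1.5 times. For fluoxetine in WT (26 genes) they were 49 with the block, 122 with DESeq2, 65 with tissue covariates, 9 with only the groups compared and 0 without the 20 libraries. For fluoxetine in HT (8 genes) they were 14 with DESeq2, 13 with tissue covariates, 19 with only the groups compared and 1 without the 20 libraries. For genotype under vehicle (1 gene) they were 31 with DESeq2, 12 with covariates and 11 without the 20 libraries. For genotype under lithium (6 genes) they were 13, 3 and 3 under the same settings, and 16 with only the groups compared. For genotype under fluoxetine (2 genes) they were 1 with only the groups compared and 1 without the 20 libraries. DESeq2 called 3 genes for lithium by genotype and 2 for lithium by sex in HT, where limma called 0. TMM moved the share of higher calls for lithium in WT to 55.9%, against 682 of 1016 without it. No setting moved the median of all genes by more than 0.0109 on the log2 scale. Small values such as those of Cort and Crh have few reads behind them, and intervals cover the spread between these libraries alone.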
